A study of Homo sapiens with 8 samples.

Results

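The RAB proteins are the largest branch of the RAS superfamily of small GTPases. They were followed here as every gene whose array symbol is RAB, a number and at most 1 letter, with a probe detected at a detection p under 0.01 on at least 2 of 8 arrays, the brightest such probe standing for the gene. Of 62 RAB genes with such a symbol on the array, 38 met the rule and 24 did not, among 8509 named genes that met it in all. The cells were Karpas299, a long-used human cell line from an anaplastic large cell lymphoma, a T cell tumour that carries the receptor CD30 and an NPM1-ALK fusion. All 4 groups were grown for 16 h and then kept for 8 h more, either untreated, with 10 µg/ml CD153-Fc (the natural CD30 ligand joined to an antibody Fc part), with 10 µg/ml of the agonistic anti-CD30 antibody T104, or with 10 µg/ml of both. The question was how ligand and antibody compare, and each group held 2 biological duplicates of 1 line. No group had a control Fc protein or control antibody, so binding to CD30 and exposure to added protein cannot be told apart.

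A RAB protein cycles between an inactive form with GDP and an active form with GTP. Exchange factors (GEFs) load GTP, GTPase-activating proteins (GAPs) with a TBC domain end the active state, and effectors such as motors and tethers bind the active form. Each RAB marks particular membranes, and lymphocytes use several of them to move receptors to and from the surface and to release secretory and cytotoxic granules.

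The arrays had mean probe intensities from 722 to 850 and between 10713 and 12967 of 48797 probes detected. Of the markers of the line, ALK and IL2RA were detected on all 8 arrays, TNFRSF8 (CD30 itself) on 2 and NPM1 on 0 of 8. The cytotoxic granule markers GZMB, PRF1 and TIA1 were detected on all 8 arrays, as were CD4 and CD3D, while CD2, CD3E and PTPRC were detected on none and CD5 on 2. B cell markers (0 of 2) and stromal or epithelial markers (0 of 4) were not detected, and of 3 myeloid markers CSF1R alone was. The untreated duplicates stood further apart than the others. Over the 38 RAB genes, replicate 1 minus replicate 2 had an SD of 0.40 log2 in untreated cells, against 0.29 with CD153-Fc and 0.26 in each group with T104. Results against untreated cells are therefore given with and without each untreated array where this matters. Levels below are normalized log2 intensities, which order samples for 1 probe but not 1 gene against another.

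The 4 RAB promoters below are shown because their genes carried the clearest changes (RAB27B lower, RAB10 and RAB9A higher) or, for RAB27A, because it is the closest paralog of RAB27B and did not pass the test. Each is the 250 bases before a RefSeq transcription start (GRCh38.p14), 5′ to 3′ on the gene's strand. Matches to a loose form of the NF-kB consensus (GGG, any 5 bases, CC, or the same read on the other strand) are in capitals. The windows are chr18:54717607-54717856 (plus strand) for RAB27B, chr15:55319124-55319373 (minus) for RAB27A, chr2:26033834-26034083 (plus) for RAB10 and chrX:13688878-13689127 (plus) for RAB9A. The RAB10 window lies inside the RefSeq span of the gene, which begins at 26033285, so it is not upstream of the whole gene.
RAB27B: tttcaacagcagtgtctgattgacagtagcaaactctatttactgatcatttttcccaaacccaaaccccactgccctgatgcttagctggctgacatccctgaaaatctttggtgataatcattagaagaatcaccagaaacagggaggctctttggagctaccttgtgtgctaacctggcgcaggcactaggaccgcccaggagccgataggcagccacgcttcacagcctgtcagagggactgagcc
RAB27A: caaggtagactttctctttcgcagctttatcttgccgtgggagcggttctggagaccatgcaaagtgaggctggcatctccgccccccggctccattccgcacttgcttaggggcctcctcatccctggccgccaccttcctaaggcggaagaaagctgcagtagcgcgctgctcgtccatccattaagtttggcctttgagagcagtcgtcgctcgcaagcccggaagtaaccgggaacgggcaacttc
RAB10: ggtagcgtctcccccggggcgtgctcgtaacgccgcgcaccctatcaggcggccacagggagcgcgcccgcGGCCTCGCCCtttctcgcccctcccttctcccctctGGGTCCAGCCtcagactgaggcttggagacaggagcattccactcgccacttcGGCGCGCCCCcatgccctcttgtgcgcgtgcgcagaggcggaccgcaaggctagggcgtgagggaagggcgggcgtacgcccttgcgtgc
RAB9A: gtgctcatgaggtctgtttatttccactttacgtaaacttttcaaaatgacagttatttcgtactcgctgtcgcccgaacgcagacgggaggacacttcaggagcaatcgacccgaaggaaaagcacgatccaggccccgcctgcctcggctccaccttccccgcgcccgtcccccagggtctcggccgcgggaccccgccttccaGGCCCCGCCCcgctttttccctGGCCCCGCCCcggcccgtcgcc

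The RAB27B window held 4 CpG pairs and 50.4% G or C, and that of RAB27A 17 CpG pairs and 58.8%. The RAB10 window held 28 CpG pairs and the RAB9A window 25. Over all 27305 promoters the median was 11 CpG pairs and 58% G or C, and over the 29 RAB genes of the 38 with a window it was 24 CpG pairs and 67.6%. The NF-kB pattern matched 3 times in RAB10, 2 times in RAB9A and not in RAB27B or RAB27A. It matched in 53.7% of all windows and in 23 of the 29 RAB windows (79.3%), which were also richer in G and C, and whether base composition has a part in that was not tested. The AP-1 pattern TGANTCA was found in 1 of the 29 RAB windows (3.45%, against 6.60% of all) and the E-box CACGTG in 4 (13.8%, against 6.49%). No match of 1 pattern overlapped a match of another in the 4 printed windows, where these last patterns had no match. A match describes letters only.

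The 8 arrays were first tested for any difference among the groups, and 5 of the 38 RAB genes were called (limma F test, adjusted p under 0.05, 13.2% of members). In all features tested, 5.96% were called. These 5 genes were RAB27B (adjusted p = 2.96e-04), RAB10 (0.0138), RAB9A (0.0185), RAB26 (0.0398) and RAB38 (0.0474). Since RAB26 passed the detection rule through its untreated arrays alone, counts are also given without it, a choice made after its values were seen, here 4 of 37 (10.8%). RAB24 (0.0611) lay just past the threshold, and it and RAB8B were called in comparisons of single groups. With 1 array left out, more RAB genes were called without either untreated array and fewer without any treated array. The share of all features called in those fits is not given here, so this is no result about the RAB genes.

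RAB27B, which serves the release of secretory granules and vesicles, had the widest spread of group means of the 38, 2.23 log2. It measured 9.71 and 9.44 log2 in untreated cells, 8.98 and 8.53 after CD153-Fc, 7.08 and 7.60 after T104, and 8.12 and 7.74 after both agents. The groups did not overlap, and the order ran from untreated through CD153-Fc and both agents down to T104. With T104 it was detected on 1 of 2 arrays, at values near the lowest detected signal of those arrays (mean 7.23 log2). RAB27B then measured 4.68-fold lower than in untreated cells (-2.23 ± 0.23 log2, SE, adjusted p = 5.33e-05), and with both agents 3.12-fold lower (-1.64 ± 0.23, adjusted p = 9.78e-04). CD153-Fc alone gave -0.82 ± 0.23 (adjusted p = 0.120), which did not pass. T104 against CD153-Fc gave -1.41 ± 0.23 (adjusted p = 0.0139), and this was the only call for a RAB gene between treated groups. The calls of T104 and of both agents against untreated cells held with each of the 8 arrays left out, from -2.49 to -1.97 and from -1.83 to -1.45. Under other settings the size ranged more widely, from -2.455 to -1.66 with T104 and from -1.97 to -1.29 with both. The T104 change was -1.66 without background correction and -1.72 in the authors' processed intensities. The call of T104 against CD153-Fc was lost without any 1 of the 4 arrays compared, at -1.67 to -1.15. These arrays cannot tell fewer cells with RAB27B RNA from less RNA per cell.

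The RAB27B values rest on 1 probe. It is annotated to the clone sequence AF131784 and was detected on 7 of 8 arrays, among them 1 of 2 T104 arrays. The 2 probes annotated to the reference transcript NM_004163 were detected on 0 of 8 arrays, at most at 5.72 log2. RAB27A, which is needed for the release of cytotoxic granules from T cells and natural killer cells, was detected on all arrays. Its levels were 10.57 and 10.59 in untreated cells, 10.66 and 10.60 after CD153-Fc, 10.22 and 10.37 after T104, and 10.46 and 10.02 after both agents. The groups with T104 lay lower, but the change was -0.28 ± 0.17 with T104 (adjusted p = 0.325) and -0.34 ± 0.17 with both (adjusted p = 0.262). Dimmer RAB27A probes disagreed, one detected on 6 arrays giving -0.61 with T104 and -0.85 with both, and one detected on 4 arrays giving 0.15 and 0.12, and neither passed. Under median scaling RAB27A was called lower with both agents (-0.62, adjusted p = 0.0361). The difference in response between RAB27A and RAB27B was not itself tested.

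RAB26, a RAB of secretory granules, was above background in untreated cells only, at 7.18 and 7.61 log2. It entered the family through those 2 arrays alone, so some difference was built in. It was measured at 6.82 and 6.37 after CD153-Fc, 6.31 and 5.71 after T104, and 6.29 and 6.17 after both agents, none of them well above background. With T104 it was at least 1.12-fold lower (means 7.40 and 6.01 log2, adjusted p = 0.00873), a call lost without T104 replicate 2. With both agents the mean was 6.23 log2 (adjusted p = 0.0321), and no fold can be given because the lowest detected signal on those arrays exceeded the untreated mean. That call was lost without untreated replicate 2, either CD153-Fc array or either array given both. RAB11B, with 1 detected array, fell just outside the rule. Its probe read 7.20 and 5.64 log2 in the untreated duplicates and 5.91 to 6.54 elsewhere.

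RAB38, which with RAB32 builds lysosome-related organelles such as melanosomes, was the third gene lower with T104. It measured 8.99 and 8.93 log2 in untreated cells, 8.40 and 8.52 after CD153-Fc, 8.10 and 8.18 after T104, and 8.60 and 8.51 after both agents. Every treated array lay below both untreated arrays, and the T104 arrays lay lowest. The change was -0.82 ± 0.17 with T104 (adjusted p = 0.00745), -0.50 ± 0.17 with CD153-Fc (adjusted p = 0.182) and -0.41 ± 0.17 with both (adjusted p = 0.178). The call was lost without either T104 array (-0.78 without replicate 1 and -0.86 without replicate 2). RAB32 gave 0.28 ± 0.15 with T104 (adjusted p = 0.248).

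RAB10, which drives exocytosis of vesicles such as those of the glucose transporter GLUT4, was the RAB gene with the largest rise. Its levels were 12.00 and 12.24 log2 in untreated cells, 12.59 and 12.86 after CD153-Fc, 12.93 and 13.00 after T104, and 12.73 and 12.91 after both agents. All treated arrays lay above both untreated arrays. It rose 1.80-fold with T104 (0.85 ± 0.15 log2, adjusted p = 0.00293) and 1.63-fold with both (0.70 ± 0.15, adjusted p = 0.0130). CD153-Fc gave 0.61 ± 0.15 (adjusted p = 0.0688). The T104 call was lost without T104 replicate 2, and that for both agents without either array given both.

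RAB9A, which returns mannose 6-phosphate receptors from late endosomes to the Golgi, measured 9.68 and 9.53 log2 in untreated cells and 9.80 and 9.75 with CD153-Fc. It measured 10.33 and 10.44 with T104 and 10.18 and 10.28 with both, so that the 4 arrays with T104 stood apart from the 4 without it. It rose by 0.78 ± 0.15 log2 with T104 (1.71-fold, adjusted p = 0.00602) and by 0.63 ± 0.15 with both (1.54-fold, adjusted p = 0.0289). With CD153-Fc it was at 0.17 ± 0.15 (adjusted p = 0.633). Set directly against CD153-Fc, T104 gave 0.61 ± 0.15 (adjusted p = 0.128), which did not pass. The T104 call was lost without either T104 array, and that for both agents without any 1 of the 6 treated arrays.

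RAB24, tied to autophagy, and RAB8B, which carries cargo from the Golgi to the surface, rose by less. RAB24 read 10.43 and 10.36 log2 in untreated cells, 11.10 and 10.87 after CD153-Fc, 10.99 and 10.89 after T104, and 10.93 and 11.07 after both agents. It was about equally higher in the 3 treated groups, at 0.59 ± 0.15 with CD153-Fc (adjusted p = 0.0877), 0.55 ± 0.15 with T104 (adjusted p = 0.0379) and 0.61 ± 0.15 with both (adjusted p = 0.0321). Of its 4 other detected probes, 3 gave 0.47 to 0.67 and 1 gave -0.09 with T104, and none passed. With the mean of its probes the T104 call was lost, and that with both agents was kept. RAB8B read 10.40 and 10.32 in untreated cells, 10.54 and 10.56 after CD153-Fc, 10.80 and 10.91 after T104, and 10.79 and 10.72 after both agents. It rose by 0.49 ± 0.15 with T104 (adjusted p = 0.0482), while its paralog RAB8A was at -0.16 ± 0.13 (adjusted p = 0.480). The calls of RAB24 and RAB8B were lost without any 1 of the 6 treated arrays.

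**Figure D1:**
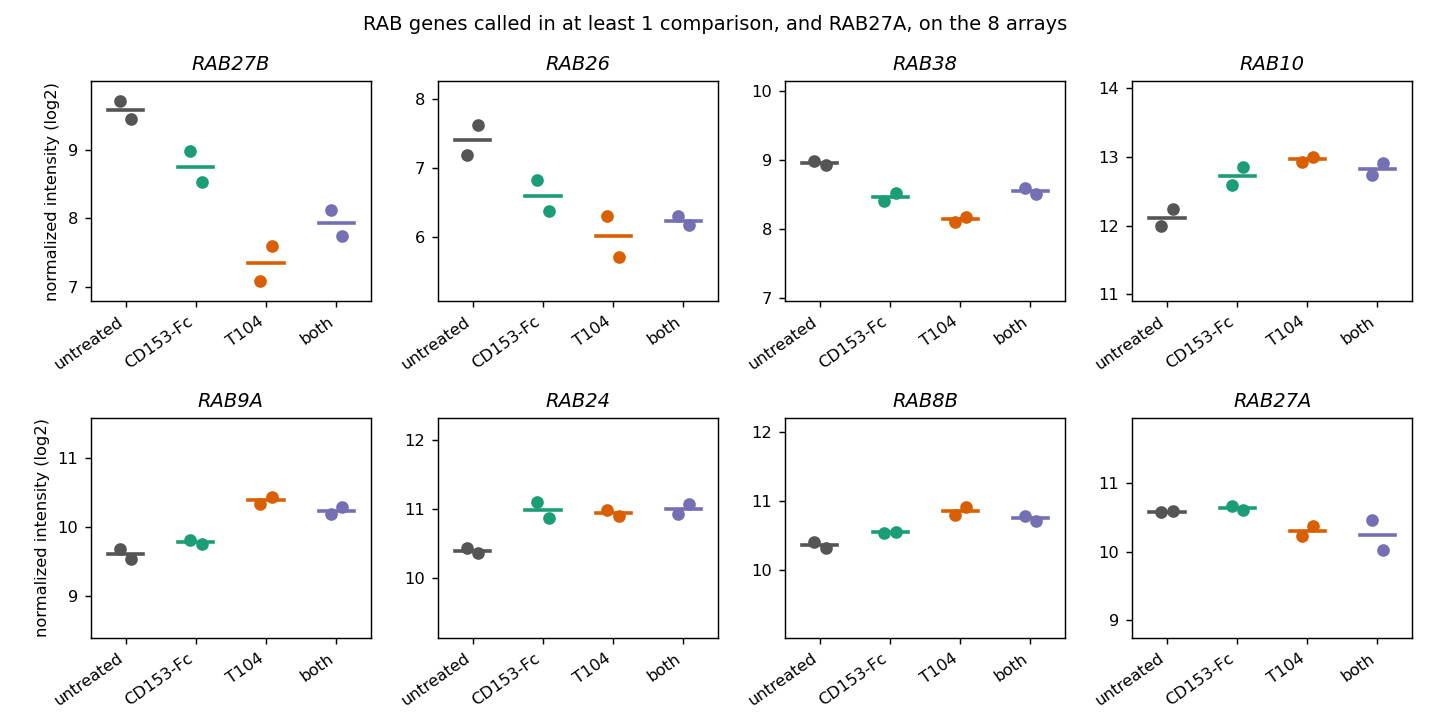
Normalized log2 intensity of the 7 RAB genes called in at least 1 comparison, and of RAB27A, on each array. Points are arrays, lines are means of 2 arrays, and every panel spans the same number of log2 units. RAB27B runs from 9.71 in an untreated array to 7.08 in a T104 array, while RAB27A stays between 10.02 and 10.66.

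In T104 against untreated cells, 7 of 38 RAB genes were called (18.4%), 4 higher and 3 lower, where 10.5% of all 10183 features were called (5.11% higher and 5.41% lower). Without RAB26 it was 6 of 37 (16.2%). The median RAB change was 0.19 log2 against -0.02 over all features. Of the 38, 26 had arrays that did not overlap (68.4%, against 51.4% of all features). RAB26, kept through its untreated arrays alone, was among them. Some changes depended on the untreated array: RAB5B was at 1.02 against replicate 1 and 0.27 against replicate 2, and RAB29 at 0.01 and 0.68. Of the 7 calls, only that of RAB27B held with each of the 8 arrays left out. A model of these groups alone called 3, RAB27B, RAB10 and RAB26.

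In CD153-Fc against untreated cells, 0 of 38 RAB genes were called by limma, where 1.37% of all features were called. At an unadjusted p under 0.05 there were 6, RAB10, RAB24 and RAB5B higher and RAB27B, RAB26 and RAB38 lower, or 5 of 37 without RAB26, where 15.0% of all features were. Groups did not overlap for 12 of 38, RAB26 among them (31.6%, against 41.0% of all features), and the median change was 0.06 log2. Some changes depended on the untreated array, RAB5B being at 0.93 against replicate 1 and 0.18 against replicate 2. In the same order RAB10 was at 0.72 and 0.49 and RAB24 at 0.55 and 0.63. RAB27B was at -0.95 and -0.69, RAB38 at -0.53 and -0.48, and RAB26, near background, at -0.59 and -1.02. A gene that did not pass is not shown to be unchanged.

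With both agents against untreated cells, 5 of 38 RAB genes were called (13.2%, against 6.67% of all features, 3.82% higher and 2.85% lower), RAB10, RAB9A and RAB24 higher and RAB27B and RAB26 lower. Without RAB26 it was 4 of 37 (10.8%). Arrays did not overlap for 25 of the 38, RAB26 among them (65.8%, against 47.2% of all features). The 3 comparisons share the untreated arrays, so their likeness is not independent. Of the 5 calls, only that of RAB27B held with each of the 8 arrays left out. Scaling arrays by their median instead of by quantiles gave 0 higher and 6 lower, with a median of all features at -0.31 log2 in place of -0.02. The direction of each called gene was the same under it.

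**Figure D2:**
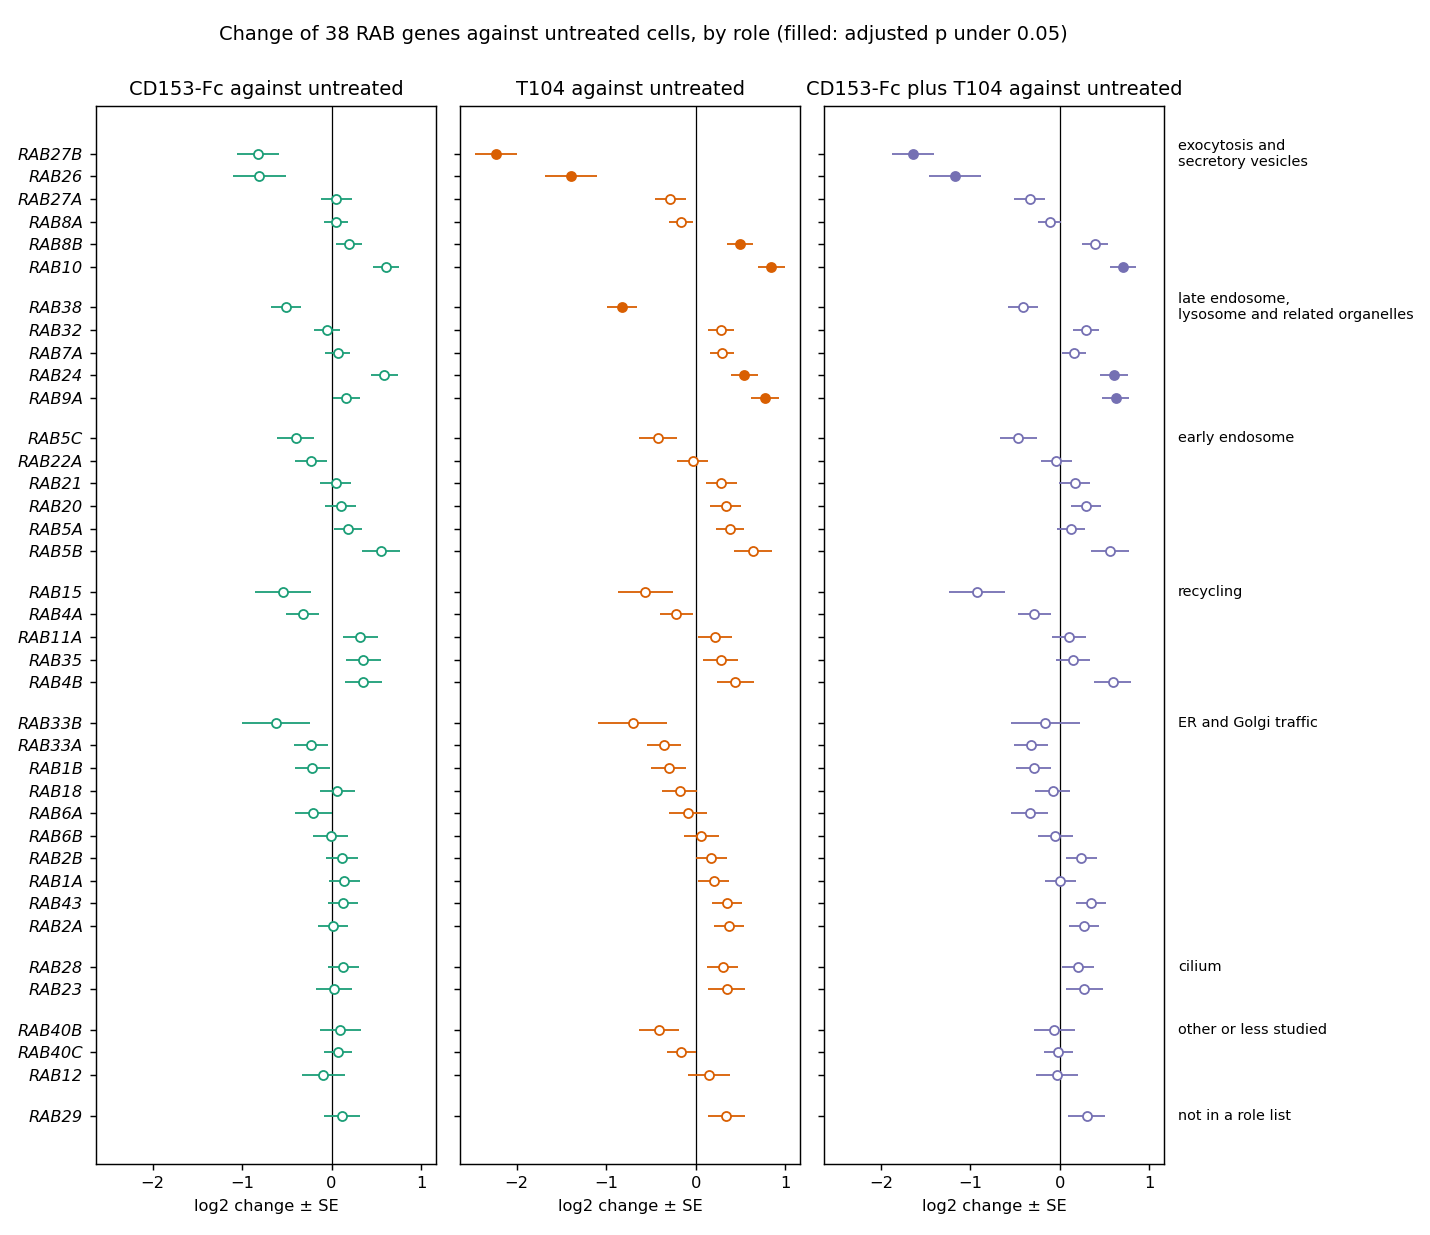
Log2 change against untreated cells with its standard error for the 38 RAB genes, grouped by role, for CD153-Fc (left), T104 (middle) and both (right). Filled points passed an adjusted p of 0.05. The 7 filled points with T104, among them RAB26, lie in the exocytosis and the late endosome groups, and no point is filled with CD153-Fc. RAB26 was kept through its untreated arrays alone, and the role lists were chosen with earlier results of these data known.

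Between treated groups little passed. T104 against CD153-Fc called 1 of 38 RAB genes, RAB27B (2.63%, against 0.609% of all features, 0.54% higher and 0.0687% lower). The call of RAB27B was lost without any 1 of the 4 arrays compared. The untreated arrays enter this comparison through the shared spread. Both agents against CD153-Fc called 0 of 38 in limma (4 at an unadjusted p under 0.05, as were 8.03% of all features, and 0.187% of all features called), with RAB27B at -0.82 ± 0.23 (adjusted p = 0.304), called without either untreated array. Both against T104 called 0 of 38 and 0 of all features in limma (0%), with RAB27B at 0.59 ± 0.23 and RAB38 at 0.41 ± 0.17 the 2 RAB genes at an unadjusted p under 0.05, as were 4.1% of all features. The interaction, which measures how far the change with both agents departs from adding the 2 single changes, called 0 of 38 (1.34% of all features). It had 5 RAB genes at an unadjusted p under 0.05, as were 12.3% of all features. RAB27B was at 1.41 ± 0.33 (adjusted p = 0.0646), RAB38 at 0.92 ± 0.24 (adjusted p = 0.0889) and RAB10 at -0.75 ± 0.21 (adjusted p = 0.121). With T104 alone RAB27B was detected on 1 of 2 arrays, near the lowest detected signal, which limits any further fall that could be measured. Whether this has a part in its interaction was not tested. Without untreated replicate 1 RAB27B and RAB38 were at 1.27 and 0.89, and without untreated replicate 2 at 1.54 and 0.95.

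By role, the 7 genes called with T104 (18.4% of the 38, against 10.5% of all features) fell in 2 groups. The role lists were chosen with earlier results of these data known, so where the calls fell is description only. Of 12 genes of exocytosis and secretory vesicles, 6 met the detection rule, and with T104 RAB10 and RAB8B rose and RAB27B fell. RAB26, kept through its untreated arrays alone, was also called lower. The 4 RAB3 genes of regulated secretion (RAB3A, RAB3B, RAB3C and RAB3D), RAB13 and RAB37 did not meet it and were detected on 0 arrays. Of 7 genes of late endosomes, lysosomes and related organelles, 5 met the rule, with RAB9A and RAB24 higher and RAB38 lower. RAB7A, the GTPase of the step from late endosomes to lysosomes, read 12.60 and 12.81 log2 in untreated cells and 13.09 and 12.91 with T104 (0.30 ± 0.14, adjusted p = 0.190).

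Of 7 early endosome genes 6 met the rule, and 0 were called in the 3 comparisons with untreated cells, with limma giving an unadjusted p under 0.05 for 1 (CD153-Fc), 2 (T104) and 2 (both). The RAB5 paralogs govern fusion of early endosomes, and none of the 3 passed against untreated cells. RAB5B read 10.16 and 10.90 log2 in the untreated duplicates and 10.93 to 11.25 in treated cells, RAB5C read 11.40 and 10.73 and then 10.48 to 10.83, and RAB5A stayed between 9.30 and 9.74. For RAB5B and RAB5C untreated replicate 1 was the array apart. RAB5B gave 0.64 ± 0.21 with T104 (adjusted p = 0.0765) and RAB5C -0.42 ± 0.21 (adjusted p = 0.236). Without untreated replicate 2 they were at 1.02 and -0.75, and without untreated replicate 1 at 0.27 and -0.08. A second RAB5C probe, detected on all 8 arrays, gave 0.16 with T104 and did not pass, so the RAB5C probes disagree in direction.

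Of 9 recycling genes 5 met the rule and of 17 ER and Golgi genes 10 did, and 0 of either were called in any of the 3 comparisons with untreated cells. An unadjusted limma p under 0.05 was found for 2 recycling genes with both agents and 1 ER and Golgi gene with T104, and for 0 in the other 4 cases. RAB11A, the GTPase of the recycling endosome, gave 0.32 ± 0.19 with CD153-Fc and 0.22 ± 0.19 with T104 (adjusted p = 0.444 and 0.504). RAB2B, a Golgi RAB, gave 0.12 ± 0.18 and 0.18 ± 0.18 (adjusted p = 0.775 and 0.564). RAB15 and RAB33B lay near background and were detected on 5 and 6 arrays, with duplicates up to 1.03 and 1.15 log2 apart. Among the genes outside these groups, RAB40C, part of a ubiquitin ligase, gave -0.16 ± 0.16 with T104 (adjusted p = 0.562), and RAB23, RAB28, RAB12, RAB40B and RAB29 were not called in any comparison. The other genes that missed the rule were detected on 0 arrays, namely RAB7B, RAB9B, RAB31, RAB14, RAB17, RAB25, RAB19, RAB30, RAB36, RAB39A, RAB39B, RAB41, RAB6C, RAB34, RAB40A, RAB42 and RAB6D.

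**Figure D3:**
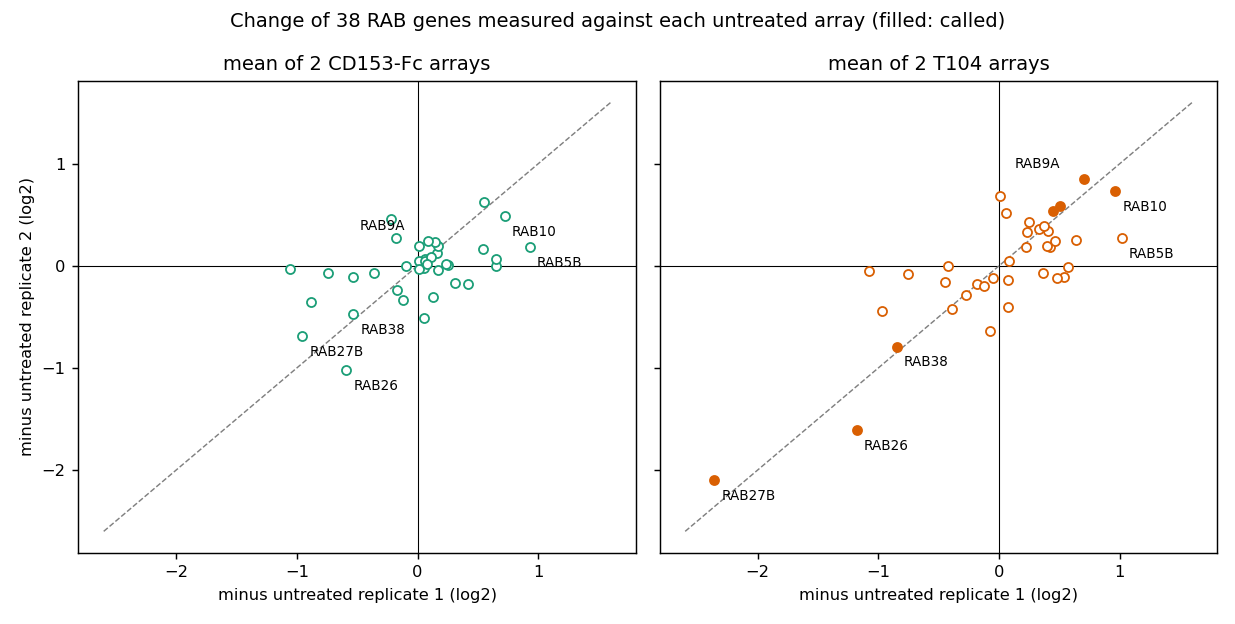
Mean change of each of the 38 RAB genes with CD153-Fc (left) and T104 (right), taken against untreated replicate 1 (horizontal axis, log2) and against untreated replicate 2 (vertical axis, log2). Filled points were called and the dashed line marks equal values. RAB27B, RAB26 and RAB38 are below 0 against both untreated arrays, and RAB5B is at 1.02 against replicate 1 and 0.27 against replicate 2 with T104.

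The proteins that switch RABs on and off were read from lists of regulators. Of 48 listed exchange factors 32 were tested, and with T104 5 were called, all higher (15.6%, against 10.5% of all features called, 5.11% higher), with a median of 0.13 log2. Without RAB3IP, whose probes disagree, it was 4 of 31 (12.9%). DENND2D and DENND5A, which carry the DENN exchange domain, rose by 1.46 ± 0.15 and 1.45 ± 0.14 log2 with T104 (adjusted p = 4.40e-05 and 3.06e-05). DENND2D read 9.06 and 9.13 log2 in untreated cells, 9.75 and 9.66 after CD153-Fc, 10.60 and 10.51 after T104, and 10.19 and 10.25 after both agents, with no overlap between groups. DENND5A also rose with CD153-Fc (0.68 ± 0.14, adjusted p = 0.0374), a call lost without any 1 of the 6 treated arrays, and both were higher with T104 than with CD153-Fc (0.85 ± 0.15 and 0.78 ± 0.14, adjusted p = 0.0213 and 0.0276), where 0.54% of all features were higher. These last calls too were lost without any 1 of the 6 treated arrays. The DENND5A interaction in limma was -0.94 ± 0.20 (adjusted p = 0.0416), also lost without any 1 of them, where 1.34% of all features were called.

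RAB3IP, the exchange factor Rabin8 of RAB8, rose by 1.01 ± 0.17 with T104 (adjusted p = 0.00267) on its brighter probe, but its other probe gave -0.77 (adjusted p = 0.0448), and the mean of its probes gave 0.12 (adjusted p = 0.691), so its direction is unsettled. DENND4A, an exchange factor of RAB10, and HPS1, a subunit of the exchange factor of RAB32 and RAB38, rose by 0.74 ± 0.22 and 0.70 ± 0.20 (adjusted p = 0.0493 and 0.0408). They were named after their values were seen, and both calls were lost without any 1 of the 6 treated arrays, that of DENND4A also without untreated replicate 2 (0.43). A second HPS1 probe gave 0.29 with T104 and -0.09 with both agents and did not pass. The HPS1 call was also lost with the mean of its probes. Of 7 genes of prenylation and membrane extraction 3 were tested and 0 called, with 0 at an unadjusted p under 0.05 in limma.

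Of 38 listed TBC-domain GAPs 23 were tested, and with T104 0 rose and 3 fell (13.0%, near the 10.5% of all features called). SGSM1 read 9.42 and 9.59 log2 in untreated cells, 8.48 and 8.51 after CD153-Fc, 7.81 and 8.19 after T104, and 8.14 and 8.30 after both agents. It fell by 1.50 ± 0.19 with T104 (adjusted p = 2.33e-04), by 1.28 ± 0.19 with both (adjusted p = 0.00109) and by 1.01 ± 0.19 with CD153-Fc (adjusted p = 0.0182, lost without either CD153-Fc array). The SGSM1 interaction in limma was 1.22 ± 0.26 (adjusted p = 0.0408), lost without any 1 of the 6 treated arrays, where 1.34% of all features were called. TBC1D2B fell by 1.21 ± 0.19 with T104 and by 1.57 ± 0.19 with both (adjusted p = 0.00146 and 2.44e-04). TBC1D14, a regulator of autophagy that acts on recycling endosomes, fell by 0.69 ± 0.15 with T104 (adjusted p = 0.00897), and this was lost without either T104 array.

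Of 54 listed effectors 33 were tested, and with T104 4 rose and 2 fell (18.2%, against 10.5% of all features called, 5.11% higher and 5.41% lower). FYCO1, which links RAB7 vesicles to kinesin, read 10.48 and 10.82 log2 in untreated cells, 10.32 and 10.18 after CD153-Fc, 9.42 and 9.29 after T104, and 9.64 and 9.93 after both agents. It fell by 1.29 ± 0.18 with T104 (adjusted p = 4.93e-04), and T104 against CD153-Fc gave -0.89 ± 0.18 (adjusted p = 0.0398, lost without any 1 of the 6 treated arrays). OPTN (optineurin), a RAB8 effector and autophagy receptor, rose by 1.21 ± 0.16 with T104 and by 0.74 ± 0.16 with CD153-Fc (adjusted p = 3.87e-04 and 0.0393, the second lost without any 1 of the 6 treated arrays). RAB11FIP1, a RAB11 adaptor, rose by 0.94 ± 0.22 with T104 (adjusted p = 0.0144), lost without either T104 array.

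The next 4 effectors were named after their values were seen. SYTL3, a synaptotagmin-like RAB27 effector, rose by 0.81 ± 0.15 with T104 (adjusted p = 0.00431, lost without T104 replicate 2). MYO5A, a myosin that carries RAB27A vesicles, rose by 0.65 ± 0.16 (adjusted p = 0.0182, lost without either T104 array). UNC13D, which primes cytotoxic granules with RAB27A, was at -0.73 ± 0.23 with T104 (adjusted p = 0.0662) and fell by 0.98 ± 0.23 with both (adjusted p = 0.0255), lost without untreated replicate 1, either T104 array or either array given both. OSBPL1A, a RAB7 effector of lipid transfer, fell by 0.62 ± 0.18 with T104 (adjusted p = 0.0438), a call lost without any 1 of the 6 treated arrays. Its second probe gave -0.48 with T104 and did not pass, and the call was also lost with the mean of its probes.

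**Figure D4:**
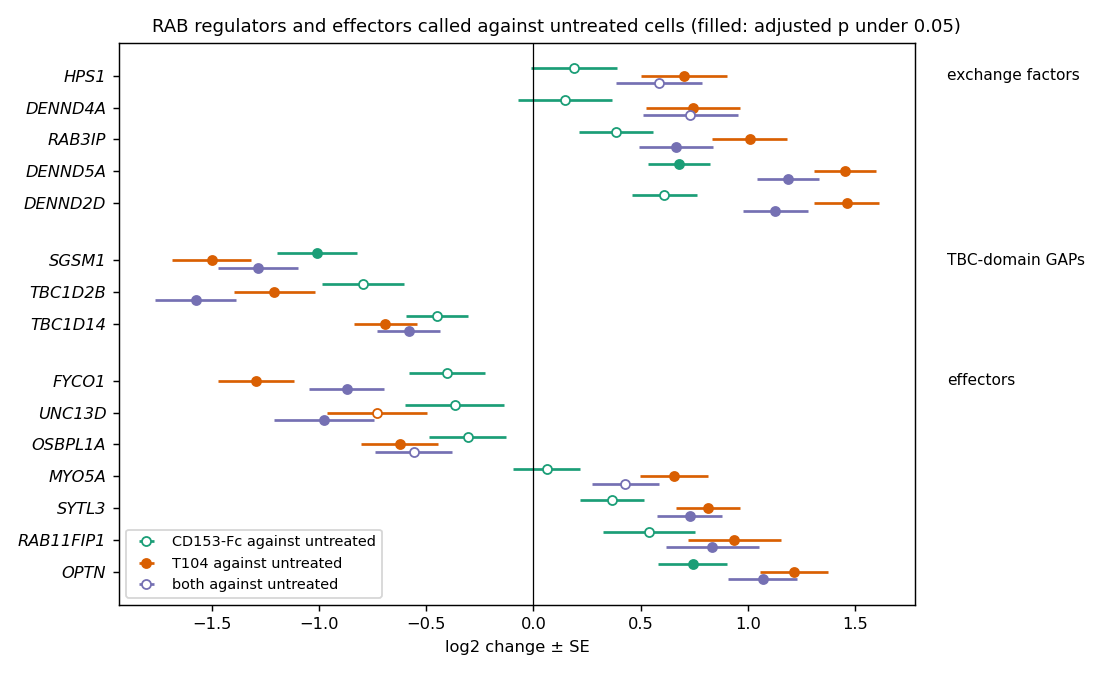
Log2 change against untreated cells with its standard error for the RAB exchange factors, TBC-domain GAPs and effectors called in at least 1 of the 3 comparisons with untreated cells. Filled points passed an adjusted p of 0.05. The 5 called exchange factors lie above 0, among them RAB3IP, whose second probe gave -0.77 with T104, the 3 called GAPs lie below it, and effectors lie on both sides.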

How the data were processed

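RNA of 8 samples was measured on Illumina HumanHT-12 v3 arrays. The authors deposited probe intensities on a linear scale, not normalized, and a detection p-value per probe and array, per the file headers. They also deposited processed intensities, nearly equal in distribution between arrays (column medians 119.685 to 119.717, linear, not centred), which served as an alternative; the sources used here do not state their method. The submitters' processing notes name GenomeStudio and the series design names BeadStudio, without versions.

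The intensities were processed with limma 3.58.1 in R 4.3.3. Its neqc method (background from detection p-values, offset 16, quantile normalization, log2) was used. A filter kept the 12543 probes detected on 2 or more of 8 arrays, and the brightest kept probe stood for a gene, giving 10183 features (8509 named genes, 1674 unnamed probes). The platform annotation, updated through RefSeq (GRCh38.p14, names only), gave 28093 probes 1 symbol, 13 several and 20691 none. Of the 38 RAB genes, 31 had 1 kept probe and 7 several. RefSeq promoter windows matched 50 of the 62 RAB genes.

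All 8 arrays entered 1 model with a mean per group (4 residual and 8.78 prior degrees of freedom, eBayes with trend). This gives all groups 1 spread, although duplicate differences over all features had an SD of 0.45 log2 in untreated cells and 0.23 to 0.26 elsewhere. SEs against untreated cells may thus be too small, and those between treated groups too large. The Benjamini-Hochberg adjustment ran over 10183 features, and 0.05 was the threshold for a call. A probe detected on neither array of 1 group, but detected in the other, gave an "at least" fold where one could be given. It was taken from the bright group's mean and, per dim array, the lowest detected signal or the probe's own if higher. A probe detected on 1 of 2 arrays, as RAB27B with T104, kept its measured fold. The fit was run on simulated data with the same spread in all groups, so that test does not cover the wider untreated spread seen here. The number of arrays limits precision.

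Replicate numbers did not pair samples: duplicate differences of the groups correlated at r from -0.10 to 0.01 across features. Members called in any test, their paralogs, RAB5A, RAB7A and RAB11A, and the called regulators with the largest change were named by a fixed rule. The RAB family, gene lists and rules were chosen with earlier results of these data known. Alternatives were background correction, offset, scaling, starting table, filters, trend, probe choice, groups in the model, the replicate block and leaving out each array.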

Additional observations from a re-analysis of the deposited data

How the results depend on the processing

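Of 229 recomputed values of the 13 called RAB changes (10 other settings where tested and 8 left-out arrays), 165 kept their call, 64 lost it and 0 reversed. For 33 changes of regulators and effectors, 430 of 592 kept it, 162 lost it and 0 reversed. RAB27B with T104 and with both agents against untreated cells lost neither call. The RAB count for any difference was 3 in place of 5 with probes detected on all 8 arrays (33 RAB genes tested), with no filter (62 tested) and with the replicate block. With both agents against untreated it was 3 in place of 5 with probes on all arrays or no filter, and 1 in the model of the compared groups alone. For T104 against untreated that model gave 3 in place of 7, and for both against CD153-Fc 1 in place of 0. T104 against CD153-Fc gave 0 in place of 1 with probes on all arrays, where RAB27B was not tested, and 2 in the model of those groups. Leaving out 1 array gave 1 to 12 for any difference, 0 to 11 for CD153-Fc, 1 to 17 for T104 and 1 to 12 for both against untreated. It gave 0 to 2 for T104 against CD153-Fc, 0 to 1 for both against CD153-Fc, 0 for both against T104 and 0 to 8 for the interaction. A group left with 1 array was assumed to vary like the others. Median scaling moved the median of all features against untreated to -0.19 (CD153-Fc), -0.20 (T104) and -0.31 (both), and the share of calls that were higher from 80.0% to 63.3%, 48.6% to 25.8% and 57.3% to 12.8%. With the replicate block the RAB counts against untreated were 5 with T104 and 4 with both, and 0 with CD153-Fc as without it. Where a result lost its call the cause was not tested. A slide block was not run because the headers name no slide. RAB26, RAB15, RAB33B and RAB40B lay near background, where signal limits any statement.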
